A study of Mus musculus with 3 samples.

Results

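The 10 genes *Mtor*, *Rptor*, *Rictor*, *Rheb*, *Rps6kb1*, *Eif4ebp1*, *Deptor*, *Lamtor1*, *Tsc1* and *Tsc2* were examined as the core components and regulators of the mTOR complexes. They were chosen by gene symbol, and all 10 were found among the 28692 genes of each table. The study sequenced single cells of mouse small intestinal crypts in 3 libraries, 1 per genotype, from adult C57BL/6 mice of 2 to 3 months. All 3 libraries carried the Olfm4-IRES-eGFPCreERT2 allele, in which an inducible Cre is expressed from *Olfm4*, a gene of crypt base stem cells. The library labelled Rescue also carried CDC42flox/flox, Yapflox/flox and Tazflox/+, the library labelled KO carried CDC42flox/flox, and the library labelled Het carried CDC42+/flox. CDC42 is a small GTPase of cell polarity, and YAP and TAZ are co-activators of the Hippo pathway. The title of the study names YAP, EGF and mTOR signaling as the route by which CDC42 acts on the passage of stem cells to transit amplifying cells, and the comparisons below concern the transcripts of the mTOR part of that route.

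mTOR is a protein kinase that works in a pair of complexes. In mTORC1 it is joined by raptor (*Rptor*) and, once Rag GTPases have brought the complex to the lysosome through the Ragulator scaffold, it is switched on by the small GTPase Rheb and promotes protein synthesis and growth. In mTORC2 it is joined by rictor (*Rictor*) and acts on kinases such as AKT. In the intestine mTORC1 is known for its part in crypt proliferation, regeneration and the response of the crypt to nutrients. Much of the control of these proteins is by phosphorylation and by place in the cell, which transcript counts do not measure.

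Epithelial barcodes were those with 2 or more unique molecular identifiers (UMIs, each standing for 1 captured transcript) of the epithelial gene *Epcam*, none of the immune gene *Ptprc*, 500 or more genes, 1000 or more UMIs and no more than 20% of UMIs from mitochondrial genes. These were 726 barcodes with 39846684 UMIs in Rescue, 1504 with 61355024 UMIs in KO and 515 with 18549801 UMIs in Het, with median depths of 46115, 41467 and 33401 UMIs in the same order. No epithelial barcode was shared between libraries. Within them, Lgr5-positive barcodes (at least 1 UMI of the stem cell gene *Lgr5*) numbered 70 in Rescue, 17 in KO and 157 in Het, and Mki67-positive barcodes (at least 2 UMIs of the proliferation gene *Mki67*) numbered 247, 213 and 77. Fabp1-high barcodes (at least 5000 CPM of the enterocyte gene *Fabp1*, CPM being UMIs of a gene relative to all UMIs of the same barcodes, scaled to a total of 1000000) numbered 208, 806 and 125, and Muc2-high barcodes (at least 500 CPM of the goblet gene *Muc2*) numbered 50, 226 and 93. A barcode could belong to more than 1 type.

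Summed markers of the named type were higher in the Lgr5-positive, Mki67-positive and Fabp1-high barcodes than in all epithelial barcodes of each library, and Paneth markers outweighed goblet ones in the Muc2-high barcodes of Het. The stem cell, proliferation, enterocyte and goblet lists each include the gene that chose the type (*Lgr5*, *Mki67*, *Fabp1* or *Muc2*). Part of the higher sums, and of the counts of markers past 2-fold, can thus follow from that choice alone. The 10 stem cell markers summed to 1334 CPM in Rescue, 1476 CPM in KO and 1847 CPM in Het among Lgr5-positive barcodes, against 360, 91.2 and 878 CPM in all epithelial barcodes. The 8 proliferation markers summed to 1191, 1005 and 782 CPM among Mki67-positive barcodes, against 629, 244 and 270 CPM in all epithelial ones, and 1, 7 and 6 of the 8 were more than 2-fold higher there in the same order of libraries. The 10 enterocyte markers summed to 42952, 56271 and 54937 CPM among Fabp1-high barcodes, against 11304, 40757 and 17385 CPM, and 10, 0 and 10 of them were more than 2-fold higher. The KO Fabp1-high barcodes thus stood less apart from the whole KO epithelium, of which they were 53.6%. The summed level of the 6 Paneth cell markers in the files was 63374 CPM in Muc2-high barcodes of Rescue, 8797 CPM in those of KO and 256486 CPM in those of Het, beside 100788, 220062 and 53995 CPM of 8 goblet markers in the same order. Lgr5-positive barcodes also held much Paneth RNA in Rescue (72610 CPM) and Het (118321 CPM), and little in KO (153 CPM). Barcodes with 50000 CPM or more of Paneth markers numbered 11 in Rescue, 8 in KO and 47 in Het, and results that differ without them are given so below. *Cdc42*, the targeted gene, was not lower in the libraries labelled Rescue and KO than in Het. It had 383 CPM in Rescue, 384 CPM in KO and 249 CPM in Het, *Yap1* had 20.4, 24.6 and 26.4 CPM, and *Wwtr1*, which encodes TAZ, had 2.86, 13.3 and 7.33 CPM, so *Wwtr1* was 2.56-fold lower in Rescue than in Het and 1.81-fold higher in KO. Reads at the 3′ end can lie outside the deleted exons, so the libraries are named below by their labels.

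With 1 library per genotype no difference had a replicate check and no test was made. A difference was counted when it reached 1.5-fold and 1 library or both held 20 or more UMIs of the gene, and intervals are exact 95% intervals that cover counting error only. In all epithelial barcodes 3 of the 10 members were at least 1.5-fold higher in KO than in Het (*Eif4ebp1*, *Lamtor1* and *Mtor*), where 18.2% of all 12668 genes were, and 3 were at least 1.5-fold lower (*Deptor*, *Rictor* and *Rps6kb1*), where 39.3% of all genes were. In Rescue over Het 1 member was higher (*Lamtor1*), beside 10.6% of genes, and 2 were lower (*Deptor* and *Rictor*), beside 19.3%. In Rescue over KO 2 members were higher (*Rps6kb1* and *Deptor*), beside 38.6% of genes, and 2 were lower (*Eif4ebp1* and *Lamtor1*), beside 18.3%. The first 2 comparisons share the Het library, and the counts are close to those shares of all genes. The median log2 ratio over all genes was −0.33 in KO over Het, 0.01 in Rescue over Het and 0.32 in Rescue over KO, and that of the 10 members was 0.22, 0.06 and −0.11. Relative to the median of all genes *Rps6kb1* was only 1.37-fold lower in KO than in Het, and *Rptor* was 1.63-fold higher. Relative to that median *Rps6kb1* and *Deptor* were 1.41-fold and 1.48-fold higher in Rescue than in KO, both under 1.5-fold, while *Mtor* (1.65-fold), *Tsc2* (1.58-fold) and *Rptor* (1.52-fold) joined the lower members.

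**Figure D1:**
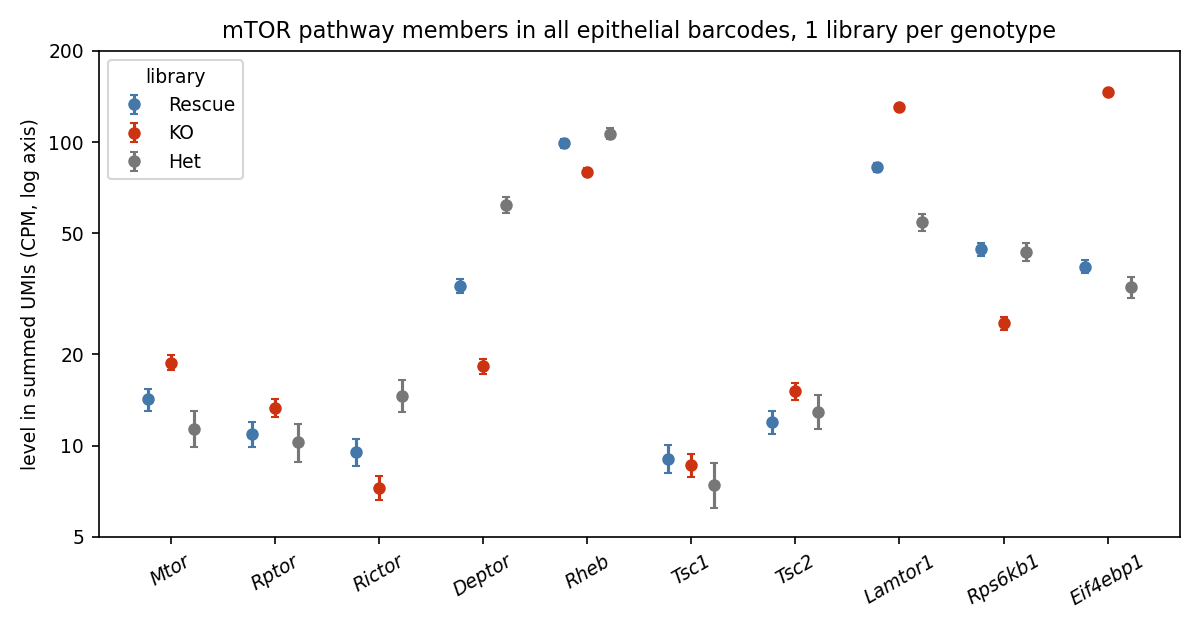
Level of each member in all epithelial barcodes (CPM, log axis) in the Rescue, KO and Het libraries, with whiskers for the 95% counting interval. *Eif4ebp1* stood at 146 CPM in KO and below 40 CPM in both other libraries, and each gene is to be read across libraries only.

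*Eif4ebp1* encodes 4E-BP1, which binds the cap-binding factor eIF4E and blocks translation until mTORC1 phosphorylates it. The gene lies on mouse chromosome 8 at 27260329 to 27276674 on the plus strand (GRCm38, GENCODE vM21). In all epithelial barcodes it had 1547 UMIs or 38.8 CPM in Rescue, 8955 UMIs or 146 CPM in KO and 617 UMIs or 33.3 CPM in Het. Only KO was high, and its interval lay far above those of the other 2. The level was 4.39-fold higher in KO than in Het (interval 4.04 to 4.77), 1.17-fold higher in Rescue than in Het (1.06 to 1.28) and 3.76-fold lower in Rescue than in KO (3.56 to 3.97). Relative to the median of all genes the KO over Het ratio was 5.51. The KO over Het ratio ranged from 3.36 to 5.75 over 13 alternative ways of choosing or weighting barcodes and scaling.

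The protein reaches mTORC1 through the TOS motif, 5 residues that dock on raptor. *Rps6kb1*, which encodes another direct substrate of mTORC1, carries a motif of the same kind near its start. Both are shown because the substrates share this docking site while their transcripts differed in direction between KO and Het. The coding sequence of *Eif4ebp1* (354 bases, transcript Eif4ebp1-201, last 150 bases shown) has the motif at codons 113 to 117, and that of *Rps6kb1* (1578 bases, transcript Rps6kb1-207, first 120 bases shown) has it at codons 28 to 32. Capitals mark the codons of the motif, and the sequences are from GENCODE vM21.
Eif4ebp1: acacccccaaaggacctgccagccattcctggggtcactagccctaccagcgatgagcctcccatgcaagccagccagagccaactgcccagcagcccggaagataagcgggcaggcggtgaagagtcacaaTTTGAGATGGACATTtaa
Rps6kb1: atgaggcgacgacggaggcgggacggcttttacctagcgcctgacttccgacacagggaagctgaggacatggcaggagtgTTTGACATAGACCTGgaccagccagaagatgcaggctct

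The largest difference in *Eif4ebp1* was among Fabp1-high barcodes, the enterocyte end of the epithelium. It had 15.9 CPM there in Rescue (129 UMIs), 153 CPM in KO (5750 UMIs) and 12.2 CPM in Het (68 UMIs), so KO was 12.5-fold higher than Het (9.85 to 16.1) and Rescue 9.59-fold lower than KO (8.05 to 11.5). The median Fabp1-high barcode held 0 CPM in Rescue, 111 CPM in KO and 0 CPM in Het, and 1 in 4 barcodes had more than 20.4, 194 and 20.9 CPM in the same order. A UMI of the gene was present in 35.1% of Fabp1-high barcodes in Rescue, 87.2% in KO and 38.4% in Het, so the KO level was spread over most of its barcodes. Fabp1-high barcodes also differed in RNA quality, with median mitochondrial shares of 14.2% in Rescue, 9.92% in KO and 15.2% in Het, whose part in the result was not tested. With the mitochondrial limit at 10% only 41 barcodes were left in Rescue, 408 in KO and 11 in Het, with 29, 3292 and 7 UMIs of the gene in the same order. Their median depths were 4591, 51270 and 2705 UMIs, against 42679, 48828.5 and 47083 UMIs at the 20% limit. The 10% limit thus set shallow barcodes of Rescue and Het against deep ones of KO. The KO over Het ratio was then 3.51 and Rescue was 1.20-fold lower than KO, no longer past 1.5-fold.

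In the other types the KO level was also the highest of the 3. *Eif4ebp1* had 50.3 CPM in Rescue, 124 CPM in KO and 41.4 CPM in Het among Mki67-positive barcodes, a KO over Het ratio of 2.99 (2.54 to 3.54). Among Muc2-high barcodes it had 59.9, 135 and 56.6 CPM in the same order, a ratio of 2.39 (2.05 to 2.79) that was 1.52 without barcodes rich in Paneth RNA. Among Lgr5-positive barcodes it had 47.4 CPM in Rescue, 95 CPM in KO and 40.5 CPM in Het, a ratio of 2.35 (1.66 to 3.25) that rests on 43 UMIs in 17 KO barcodes. When 2 UMIs of *Lgr5* were required, KO was the lower library, at 0.897 of the Het level. That limit left out 12 of the 17 KO barcodes, so the value rests on very few.

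Within a library the direction from proliferating to absorptive barcodes differed by genotype. Leaving out barcodes of both types, *Eif4ebp1* was 3.32-fold lower in Fabp1-high than in Mki67-positive barcodes in Rescue (2.74 to 4.05) and 3.52-fold lower in Het (2.62 to 4.77), and it was 1.24-fold higher in KO (1.17 to 1.31). Along 5 bins of rising *Fabp1* level the Rescue values were 53.4, 40.8, 26.8, 21.7 and 9.09 CPM. The KO values were 127, 113, 154, 156 and 147 CPM, and the Het values were 41.6, 47.7, 43.5, 17.9 and 10.1 CPM. The Rescue level was thus lower at every step, the Het level was lower in the last 2 bins than in the first 3, and the KO level was no lower at the end than at the start.

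**Figure D2:**
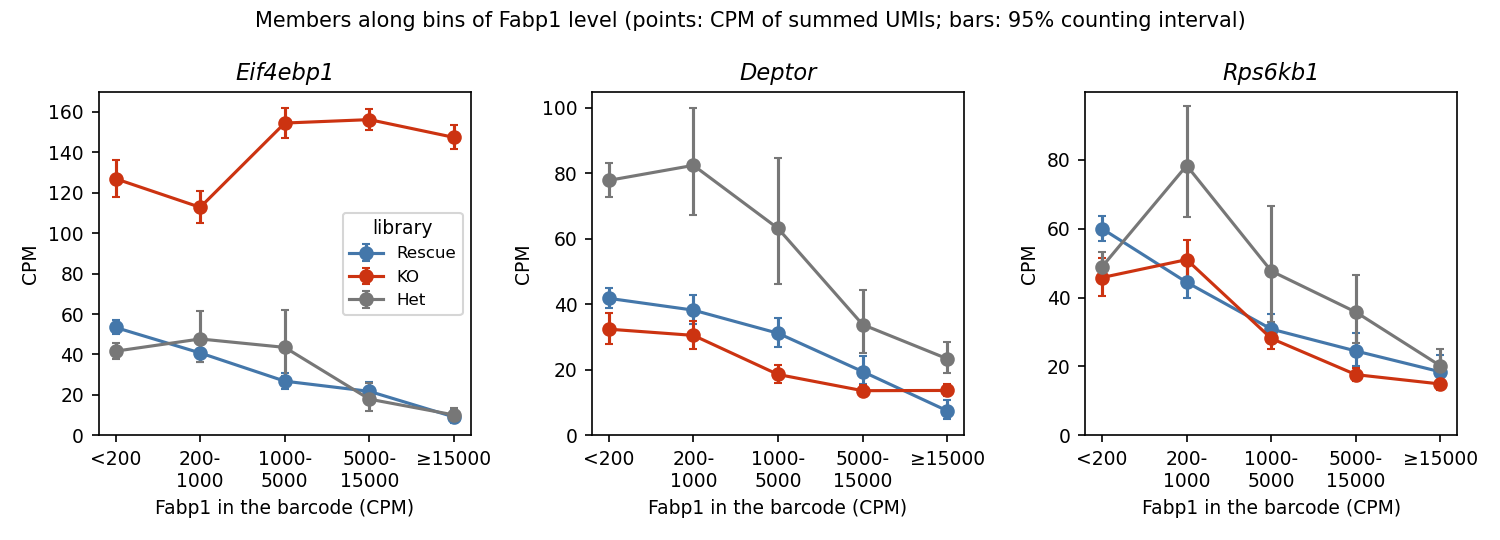
Levels of *Eif4ebp1*, *Deptor* and *Rps6kb1* (CPM, with 95% counting intervals) in epithelial barcodes grouped by their *Fabp1* level (CPM), as lines for the Rescue, KO and Het libraries. *Eif4ebp1* ended at 9.09 CPM in Rescue, 147 CPM in KO and 10.1 CPM in Het, while *Deptor* and *Rps6kb1* were lower in the last bin than in the first in all 3 libraries.

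Counts of positive barcodes gave the same order after each barcode was thinned to 5000 UMIs, which left out 60 shallower barcodes in Rescue, 191 in KO and 82 in Het. *Eif4ebp1* then had a UMI in 16.1% of epithelial barcodes in Rescue (13.4% to 19.1%), 43.7% in KO (41.0% to 46.4%) and 15.2% in Het (12% to 19.0%, exact Clopper-Pearson intervals). The unthinned shares were 66.0%, 81.0% and 53.2%. No cell type that lacks the gene was available as a measure of free RNA. Immune barcodes, thinned alike, had a UMI of it in 10.8% of barcodes in Rescue, 24.1% in KO and 6.36% in Het, with unthinned median depths of 4849, 5066 and 4997 UMIs.

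*Rps6kb1* encodes S6 kinase 1, which mTORC1 activates and which phosphorylates ribosomal protein S6. It lies on chromosome 11 at 86498871 to 86544805 on the minus strand, and its 3′ end overlaps *Rnft1* on the opposite strand, so that reads of the pair could be told apart only if counting used the strand, which the sources used here do not state. It had 44.3 CPM in Rescue, 25.2 CPM in KO and 43.5 CPM in Het in all epithelial barcodes. KO was the low library, 1.72-fold below Het (1.58 to 1.88), and Rescue was 1.75-fold higher than KO (1.64 to 1.88). *Rnft1* had 23.2, 24.1 and 24.5 CPM in the same order.

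The 3 libraries were closer among Mki67-positive and Fabp1-high barcodes and further apart among Muc2-high ones. Among Mki67-positive barcodes *Rps6kb1* had 59.3 CPM in Rescue, 56.9 CPM in KO and 65.7 CPM in Het, and the KO over Het ratio of 0.866 (0.749 to 1.00) did not reach 1.5-fold. Among Fabp1-high barcodes it had 21.7, 16.5 and 24.4 CPM, with KO 1.48-fold below Het. With the mitochondrial limit at 10% KO was 1.88-fold below Het there, on only 11 Het barcodes with 154334 UMIs of all genes. The Muc2-high barcodes had 43.8 CPM in Rescue, 19 CPM in KO and 35.9 CPM in Het, with KO 1.89-fold below Het (1.46 to 2.44), or 3.25-fold without barcodes rich in Paneth RNA, and Rescue 2.30-fold higher than KO (1.77 to 3.00). In each library *Rps6kb1* was lower in Fabp1-high than in Mki67-positive barcodes, by 2.90-fold in Rescue, 3.92-fold in KO and 2.80-fold in Het. Fabp1-high barcodes made up 28.7% of epithelial barcodes in Rescue, 53.6% in KO and 24.3% in Het, and with the 4 types weighted equally KO was 1.21-fold lower than Het and Rescue 1.28-fold higher than KO, neither past 1.5-fold.

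*Lamtor1* encodes p18, the subunit that anchors the Ragulator scaffold to the lysosome, where the Rag GTPases recruit mTORC1. It lies on chromosome 7 at 101905904 to 101926675 on the plus strand. It had 82.5 CPM in Rescue (3288 UMIs), 131 CPM in KO (8026 UMIs) and 54.4 CPM in Het (1009 UMIs), with no overlap between the 3 intervals and Rescue between the other 2. KO was 2.40-fold higher than Het (2.25 to 2.57) and Rescue 1.52-fold higher than Het (1.41 to 1.63) and 1.59-fold lower than KO (1.52 to 1.65). Without barcodes rich in Paneth RNA these ratios were 2.03 in KO over Het and 1.32 in Rescue over Het, the second no longer past 1.5-fold. *Lrrc51*, which overlaps the 3′ end on the opposite strand, had 1.71, 2.15 and 3.29 CPM in Rescue, KO and Het.

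In KO the gene was high in proliferating and absorptive barcodes alike. Among Mki67-positive barcodes *Lamtor1* had 92.3 CPM in Rescue, 145 CPM in KO and 56.7 CPM in Het, a KO over Het ratio of 2.55 (2.22 to 2.95) and a Rescue over Het ratio of 1.63 (1.41 to 1.88), the second 1.42 without barcodes rich in Paneth RNA. Among Fabp1-high barcodes it had 62.2, 134 and 60.5 CPM, so Rescue and Het did not differ beyond their counting error there (ratio 1.03, 0.894 to 1.18), while KO was 2.22-fold higher than Het (1.99 to 2.49). With the mitochondrial limit at 10% the KO over Het ratio in Fabp1-high barcodes was 5.74 and the Rescue over Het ratio 4.95, both on 4 Het UMIs, and Rescue was only 1.16-fold lower than KO, against 2.16-fold without that limit. The Muc2-high barcodes had 62.5 CPM in Rescue, 87.3 CPM in KO and 30.3 CPM in Het, a KO over Het ratio of 2.88 that was 1.58 without barcodes rich in Paneth RNA. In the Lgr5-positive barcodes the KO over Het ratio was 1.58 (1.08 to 2.25), on 34 KO UMIs, and 1.22 without barcodes rich in Paneth RNA.

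The promoter of *Lamtor1*, which was higher in KO than in Het, and that of *Rictor*, which was lower, are shown because the levels of the 2 genes differed in opposite directions. The table (build GRCm38.p6, 250 bases before to 50 bases after the start) held 8 of the 10 members, all but *Eif4ebp1* and *Deptor*. Each was searched on both strands for CATTCC, the core motif of the TEAD factors that YAP and TAZ bind, for CACGTG, an E-box, and for TGATGCAA, a motif of ATF4. CACGTG was found in 2 of the 8, *Lamtor1* and *Rheb*, beginning 68 and 96 bases before the start, and in 7.15% of all 32851 promoters. CATTCC and TGATGCAA were in none of the 8, and in 14.7% and 0.895% of all promoters. None of the motifs overlaps another here, capitals mark CACGTG, and a match is a match of letters only.
Lamtor1 (chr7:101905587-101905886, plus strand): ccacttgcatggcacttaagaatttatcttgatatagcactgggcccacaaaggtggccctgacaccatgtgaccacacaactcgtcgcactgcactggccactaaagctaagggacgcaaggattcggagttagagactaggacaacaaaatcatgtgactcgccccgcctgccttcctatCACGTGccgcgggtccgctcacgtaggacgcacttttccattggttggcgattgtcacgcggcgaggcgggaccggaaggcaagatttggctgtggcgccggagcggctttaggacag
Rictor (chr15:6708131-6708430, plus strand): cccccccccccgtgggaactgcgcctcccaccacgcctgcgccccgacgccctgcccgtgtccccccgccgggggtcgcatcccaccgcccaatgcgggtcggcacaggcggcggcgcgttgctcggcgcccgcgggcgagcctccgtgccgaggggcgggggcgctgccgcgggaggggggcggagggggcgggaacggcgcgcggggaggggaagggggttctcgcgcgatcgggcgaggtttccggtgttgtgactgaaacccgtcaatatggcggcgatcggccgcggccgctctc

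*Mtor* encodes the kinase of both complexes and lies on chromosome 4 at 148448611 to 148557683 on the plus strand. It had 14.2 CPM in Rescue (565 UMIs), 18.8 CPM in KO (1151 UMIs) and 11.4 CPM in Het (211 UMIs). KO was 1.65-fold higher than Het (1.42 to 1.92), and Rescue lay between, 1.25-fold above Het (1.06 to 1.47) and 1.32-fold below KO. The KO over Het ratio was 1.53 in Mki67-positive barcodes (1.15 to 2.08) and 1.54 in Fabp1-high barcodes (1.21 to 2.01), past 1.5-fold in both. With the mitochondrial limit at 10% it was 1.01 in Fabp1-high barcodes. That limit left 11 Het barcodes with 154334 UMIs of all genes, too few to measure a gene of this level. Without barcodes rich in Paneth RNA it was 1.44 over all epithelial barcodes and 1.42 in Mki67-positive ones, both under 1.5-fold. The ratio was above 1 in all 13 alternatives over all epithelial barcodes and above 1.5 in 8 of them, with a range of 1.40 to 2.07.

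*Rptor*, whose product brings substrates to mTORC1, lies on chromosome 11 at 119602905 to 119899576 on the plus strand. It had 10.9 CPM in Rescue, 13.3 CPM in KO and 10.2 CPM in Het, and no ratio between libraries reached 1.5-fold over all epithelial barcodes. KO was 1.3-fold higher than Het (1.11 to 1.53). With the mitochondrial limit at 10% KO was 1.91-fold higher than Het and Rescue 1.86-fold lower than KO, both past 1.5-fold. In Fabp1-high barcodes *Rptor* had 8.39 CPM in Rescue, 12.9 CPM in KO and 12 CPM in Het, with Rescue 1.53-fold below KO (1.19 to 2.01).

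*Rictor*, which defines mTORC2, lies on chromosome 15 at 6708379 to 6800401 on the plus strand. It had 9.51 CPM in Rescue (379 UMIs), 7.25 CPM in KO (445 UMIs) and 14.6 CPM in Het (270 UMIs). Het was the high library, and KO was 2.01-fold lower than Het (1.72 to 2.34) and Rescue 1.53-fold lower than Het (1.3 to 1.79), past 1.5-fold in all 13 alternatives for KO and in 10 for Rescue. In Fabp1-high barcodes both were lower than Het by a like amount, Rescue by 1.76-fold (1.18 to 2.63) and KO by 1.68-fold (1.24 to 2.25), on 48 UMIs in Rescue, 233 in KO and 58 in Het. In Mki67-positive barcodes Rescue was 1.21-fold lower than Het, an interval of the ratio of 0.615 to 1.13 that includes 1, and KO 1.54-fold lower (1.10 to 2.14), or 1.48-fold without barcodes rich in Paneth RNA. The 17 Lgr5-positive KO barcodes had 0 UMIs of *Rictor*, beside 10.7 CPM in Rescue and 18.3 CPM in Het. For the counts of members this 0 was set to a chosen floor of 3 UMIs or 6.63 CPM.

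*Deptor* encodes a protein that binds mTOR and inhibits both complexes, and it lies on chromosome 15 at 55112317 to 55259271 on the plus strand. It had 33.7 CPM in Rescue (1341 UMIs), 18.2 CPM in KO (1118 UMIs) and 62.0 CPM in Het (1151 UMIs). The 3 intervals did not overlap, and KO was 3.41-fold lower than Het (3.13 to 3.70), Rescue 1.84-fold lower than Het (1.70 to 2.00) and 1.85-fold higher than KO. With the 4 types weighted equally the Rescue over KO ratio was 0.983, so that difference was not seen under that weighting. Over the 13 alternatives, which include that weighting, KO was from 1.57-fold to 4.02-fold lower than Het. Lgr5-positive barcodes made up 9.64% of epithelial barcodes in Rescue, 1.13% in KO and 30.5% in Het, and the part of this mix in the level over all barcodes was not tested beyond the weighting above. Leaving out barcodes of both types, the Lgr5-positive over Mki67-positive ratio of *Deptor* was 0.966 in Rescue and 1.01 in Het. In KO that ratio was 2.85, on 12 UMIs in the Lgr5-positive sum.

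By type, *Deptor* had 41.2 CPM in Rescue, 27.7 CPM in KO and 76.8 CPM in Het among Mki67-positive barcodes, with KO 2.78-fold (2.37 to 3.25) and Rescue 1.87-fold (1.63 to 2.13) below Het. Among Fabp1-high barcodes it had 13.9, 13.7 and 26.2 CPM, so Rescue and KO lay 1.88-fold and 1.92-fold below Het and did not differ beyond their counting error (ratio 1.02, 0.825 to 1.25). With the mitochondrial limit at 10% KO was 1.43-fold below Het in Fabp1-high barcodes, on only 11 Het barcodes with 154334 UMIs of all genes. Among Lgr5-positive barcodes it had 44.3 CPM in Rescue, 77.4 CPM in KO and 76.0 CPM in Het. In the Lgr5-positive barcodes KO and Het did not differ beyond counting error (ratio 1.02, 0.702 to 1.43), where KO had 35 UMIs, while the intervals of the ratio lay below 1 in the other types. In each library *Deptor* was lower in Fabp1-high than in Mki67-positive barcodes, by 3.03-fold in Rescue, 2.22-fold in KO and 2.96-fold in Het.

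**Figure D3:**
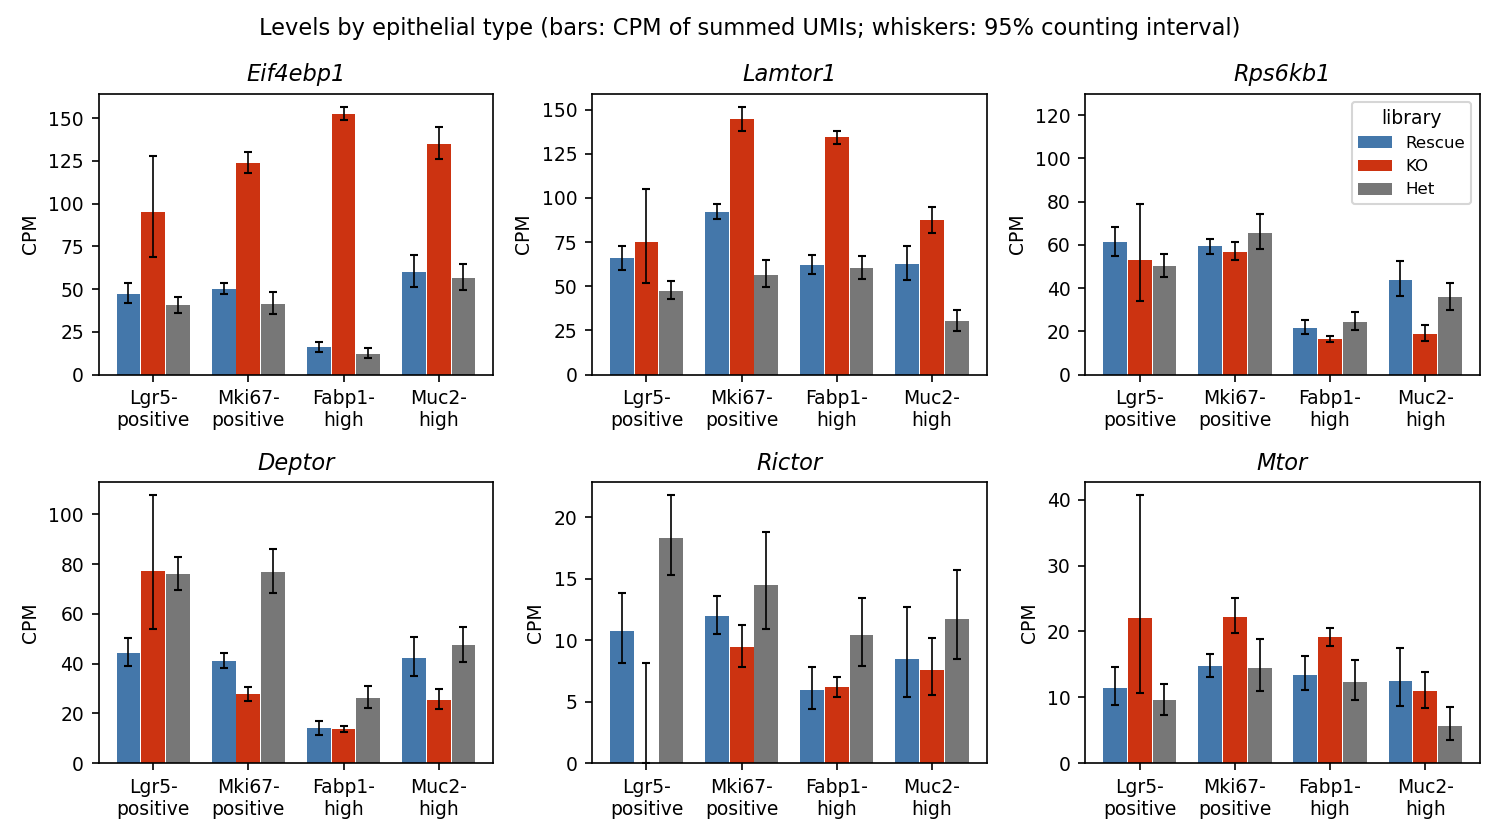
Levels of 6 members (CPM, linear axis from 0) in 4 types of epithelial barcodes, with bars for the Rescue, KO and Het libraries and whiskers for the 95% counting interval. *Eif4ebp1* was highest in KO in every type, and *Deptor* stood at 77.4 CPM in KO and 76.0 CPM in Het among Lgr5-positive barcodes but at 27.7 and 76.8 CPM among Mki67-positive ones.

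*Rheb* encodes the GTPase that activates mTORC1 at the lysosome, and it lies on chromosome 5 at 24802823 to 24842624 on the minus strand. It had 99.0 CPM in Rescue, 79.8 CPM in KO and 107 CPM in Het. KO was 1.34-fold lower than Het and Rescue 1.08-fold lower, neither past 1.5-fold, but KO was 1.52-fold lower without barcodes rich in Paneth RNA. The libraries were close in Mki67-positive barcodes, with 118 CPM in Rescue, 122 CPM in KO and 131 CPM in Het, and in Fabp1-high barcodes, with 76.6, 69.2 and 62.8 CPM. With the mitochondrial limit at 10% Rescue was 3.04-fold higher than Het and 2.58-fold higher than KO in the Fabp1-high barcodes. That limit left 41 Rescue and 11 Het barcodes of low depth (median 4591 and 2705 UMIs) beside deep KO ones (51270 UMIs). Among Muc2-high barcodes *Rheb* had 81.3 CPM in Rescue, 58.4 CPM in KO and 93.8 CPM in Het, with KO 1.61-fold lower than Het (1.38 to 1.87), 2.94-fold without barcodes rich in Paneth RNA and 1.35-fold with the 10% limit. Within each library *Rheb* was lower in Fabp1-high than in Mki67-positive barcodes, by 1.55-fold in Rescue, 1.87-fold in KO and 2.12-fold in Het. Of the 31-base words in the last 500 bases of its transcript 5.74% also occur in another gene, so reads there could be shared.

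*Tsc1* and *Tsc2* encode hamartin and tuberin, the complex that turns Rheb off. *Tsc1* lies on chromosome 2 at 28641228 to 28691167 on the plus strand and *Tsc2* on chromosome 17 at 24595816 to 24632630 on the minus strand. *Tsc1* had 9.03 CPM in Rescue, 8.62 CPM in KO and 7.39 CPM in Het, and its KO over Het ratio of 1.17 had an interval that includes 1 (0.966 to 1.42). *Tsc2* had 11.9 CPM in Rescue, 15.1 CPM in KO and 12.9 CPM in Het, a KO over Het ratio of 1.17 (1.01 to 1.35). Neither reached 1.5-fold between any 2 libraries over all epithelial barcodes, though *Tsc2* was 1.67-fold lower in Rescue than in KO with the mitochondrial limit at 10%, and the KO over Het ratio of *Tsc1* was 1.84 with the 4 types weighted equally. In Lgr5-positive barcodes *Tsc1* had 9.63 CPM in Rescue (53 UMIs), 15.5 CPM in KO (7 UMIs) and 5.11 CPM in Het (36 UMIs). Its ratio to Het there was 1.88 in Rescue (1.21 to 2.96) and 3.03 in KO (1.14 to 6.90), the KO level resting on those 7 UMIs. *Tsc1* also passed 1.5-fold in Muc2-high barcodes, with 6.62 CPM in Rescue (18 UMIs), 14.7 CPM in KO (89 UMIs) and 6.64 CPM in Het (25 UMIs), and the KO over Het ratio of 2.22 there was 1.32 without barcodes rich in Paneth RNA. *Tsc2* had a level 1.32-fold higher in Fabp1-high than in Mki67-positive barcodes in Rescue (1.03 to 1.68), 1.34-fold in KO (1.11 to 1.64) and 1.39-fold in Het (0.961 to 2.03), the opposite of *Rheb*. Its 3′ end overlaps *Pkd1* on the opposite strand, which had 2.66, 1.92 and 3.40 CPM in Rescue, KO and Het.

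**Figure D4:**
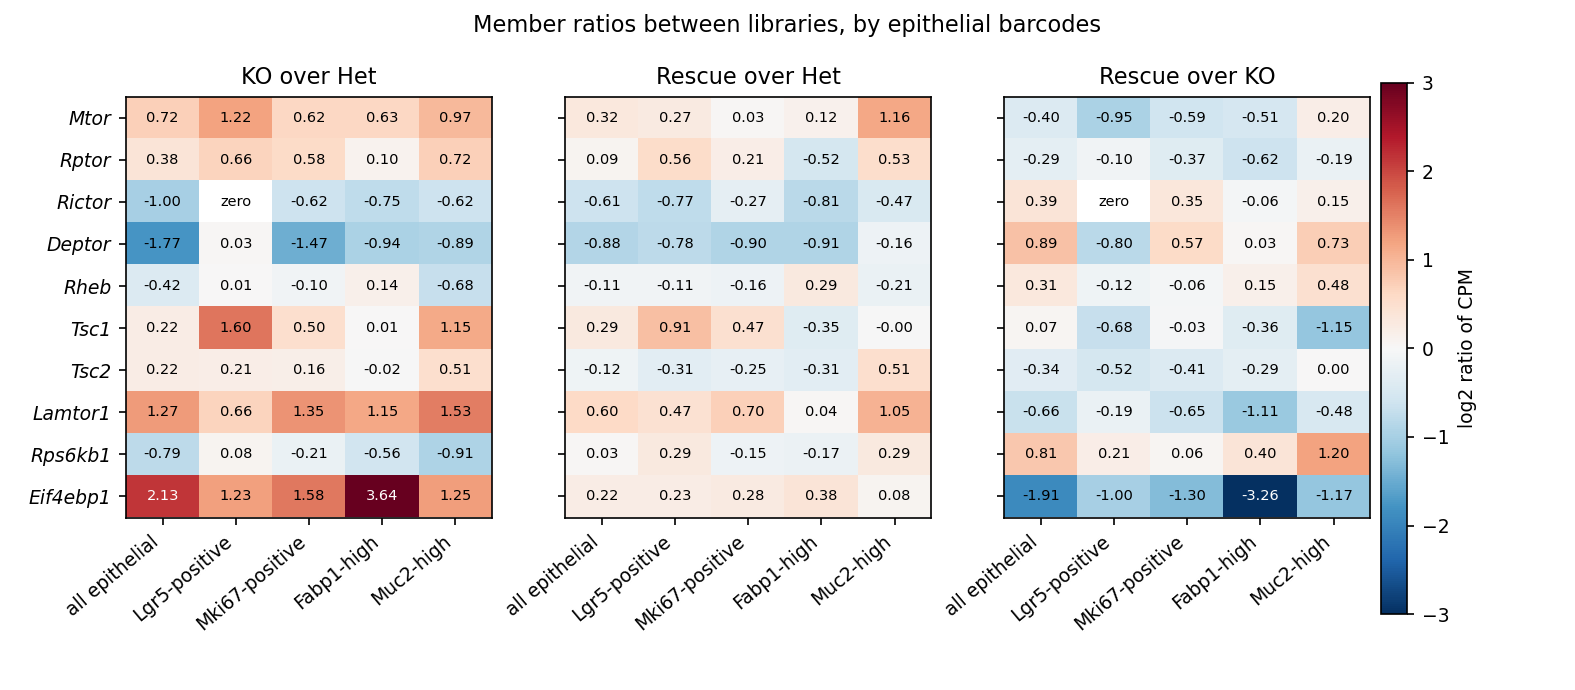
Log2 ratio of the CPM of each member between libraries, for all epithelial barcodes and the 4 types, in the panels KO over Het, Rescue over Het and Rescue over KO, with red for a higher and blue for a lower level in the first library. *Eif4ebp1* in Fabp1-high barcodes had the widest ratios, 3.64 in KO over Het and −3.26 in Rescue over KO, and "zero" marks *Rictor* without a UMI in KO.

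By type the counts of members past 1.5-fold in KO over Het were 5 higher and 1 lower in Lgr5-positive barcodes (36.3% and 13.9% of all genes), 3 and 2 in Mki67-positive barcodes (21.0% and 15.9%), 3 and 2 in Fabp1-high barcodes (18.5% and 30.7%) and 5 and 4 in Muc2-high barcodes (45.1% and 13.3%). *Mtor*, *Eif4ebp1* and *Lamtor1* were on the higher side in all 4 types. *Rictor* was on the lower side in all 4 and *Deptor* in 3. The median log2 ratio of all genes in KO over Het was 0.36 in Lgr5-positive and 0.47 in Muc2-high barcodes, and relative to it *Lamtor1* and *Rptor* were 1.23-fold higher in Lgr5-positive barcodes, and *Mtor* 1.42-fold and *Rptor* 1.20-fold higher in Muc2-high barcodes, all under 1.5-fold. In Rescue over Het the counts were 1 higher and 2 lower in Lgr5-positive (11.8% and 13.4% of genes), 1 and 1 in Mki67-positive (11.4% and 12.1%), 0 and 2 in Fabp1-high (5.12% and 16.8%) and 2 and 0 in Muc2-high barcodes (60.1% and 5.06%). The median of all genes in that last comparison was 0.73, and relative to it *Mtor* and *Lamtor1*, the 2 higher members, were 1.35-fold and 1.25-fold higher, under 1.5-fold. Relative to the same median 5 members were lower, *Rictor* by 2.29-fold, *Rheb* by 1.91-fold, *Deptor* by 1.85-fold, *Tsc1* by 1.66-fold and *Eif4ebp1* by 1.56-fold. In Rescue over KO they were 1 and 4 (13.4% and 29.2%), 0 and 3 (14.5% and 14.3%), 0 and 3 (20.6% and 21.5%) and 2 and 2 (34.1% and 20.8%) in the same order of types.

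Other genes of the pathway were read from 5 lists, over all epithelial barcodes unless a type is named. Fabp1-high barcodes were 53.6% of these in KO and 24.3% in Het, and the part of that mix in the list counts was not tested. In KO over Het the list counts are to be read beside the 18.2% of all genes that were higher, the 39.3% that were lower and the median of −0.33. List counts by type are to be read beside the shares of all genes given above for each type. Of 7 other complex subunits with enough UMIs 1 was past 1.5-fold higher in KO over Het and 3 were past 1.5-fold lower. Their median log2 ratio was −0.33, as for all genes. By type 3 were higher and 2 lower in Lgr5-positive barcodes, and 1 and 0 in Mki67-positive ones. The counts were 0 and 2 in Fabp1-high barcodes, and 3 and 1 of 6 genes in Muc2-high ones. *Mlst8*, the subunit common to both complexes, had 8.76 CPM in Rescue, 10.3 CPM in KO and 6.74 CPM in Het. *Tti1* and *Tti2*, which help to fold mTOR and related kinases, were the lowest, at 5.32, 2.38 and 4.58 CPM for *Tti1* and 6.12, 2.71 and 5.71 CPM for *Tti2* in Rescue, KO and Het, and *Mapkap1*, which encodes the mTORC2 subunit SIN1, had a ratio of 1.07. By type, *Tti1* was counted as lower only in Lgr5-positive barcodes and *Tti2* only in Fabp1-high ones.

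Of 11 genes of the Ragulator and Rag GTPases none was past 1.5-fold higher and 2 were lower in KO over Het, with a median of 0.09. By type 1 was higher and 2 lower in Lgr5-positive, and 2 and 3 in Mki67-positive barcodes. The counts were 1 and 3 in Fabp1-high and 8 and 0 in Muc2-high barcodes. *Lamtor5*, another Ragulator subunit, had 104 CPM in Rescue, 96.5 CPM in KO and 68.4 CPM in Het, and its KO over Het ratio of 1.41 compares with 2.40 for *Lamtor1*. *Rragd*, a Rag GTPase, had 61.5 CPM in Rescue, 17.7 CPM in KO and 36.6 CPM in Het, so it was 2.07-fold lower in KO and 1.68-fold higher in Rescue than in Het. *Flcn*, whose product acts on the Rag GTPases, was 1.84-fold lower in Rescue and 1.53-fold lower in KO than in Het, and *Rragc* had a KO over Het ratio of 1.21.

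Of 14 genes of GATOR, KICSTOR and the amino acid sensors none was past 1.5-fold higher and 6 were lower in KO over Het, beside the 39.3% of all genes, with a median of −0.46 against −0.33. By type 7 were higher and 1 lower in Lgr5-positive, and 1 and 3 in Mki67-positive barcodes. The counts were 0 and 5 in Fabp1-high barcodes, and 0 and 3 of 13 genes in Muc2-high ones. Over all epithelial barcodes the lowest were a pair of sestrins, stress-induced inhibitors of mTORC1. *Sesn3* had 5.37 CPM in Rescue, 4.65 CPM in KO and 14.7 CPM in Het, low in both, and *Sesn1* had 25.1, 11.7 and 23.9 CPM, low in KO only. *Sec13*, a GATOR subunit that also serves in vesicle coats, had a KO over Het ratio of 1.25 (1.19 to 1.32).

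Of 18 growth factor and energy inputs 2 were higher and 5 lower in KO over Het, with a median of 0.04. By type 5 were higher and 4 lower in Lgr5-positive, and 6 and 5 in Mki67-positive barcodes. Of 17 genes the counts were 1 and 5 in Fabp1-high and 7 and 3 in Muc2-high barcodes. *Igf1r*, the receptor for insulin-like growth factor 1, had 11.5 CPM in Rescue (457 UMIs), 0.994 CPM in KO (61 UMIs) and 16.4 CPM in Het (305 UMIs), 16.5-fold lower in KO than in Het (12.5 to 22.1). *Pik3r1*, a regulatory subunit of PI3 kinase, had 65.1, 25.2 and 77.4 CPM, 3.08-fold lower in KO than in Het. *Rhebl1*, the close relative of *Rheb*, had 6.40 CPM in Rescue, 17.7 CPM in KO and 6.58 CPM in Het, 2.69-fold higher in KO (2.23 to 3.27), and *Prkaa2*, a catalytic subunit of AMPK, was 1.81-fold higher in KO (1.60 to 2.05).

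Of 14 downstream effectors none was past 1.5-fold higher and 7 were lower in KO over Het, beside the 39.3% of all genes, with a median of −0.69 against −0.33. By type 3 were higher and 1 lower in Lgr5-positive barcodes. In Mki67-positive barcodes 1 was higher and 3 were lower, with a median of −0.09 against 0.09. The counts were 0 and 5 in Fabp1-high barcodes (−0.49 against −0.17), and 2 and 3 of 13 genes in Muc2-high ones. *Pdcd4*, a translation inhibitor that S6 kinase marks for degradation, had 140 CPM in Rescue (5564 UMIs), 25.5 CPM in KO (1567 UMIs) and 145 CPM in Het (2695 UMIs), 5.69-fold lower in KO than in Het (5.34 to 6.06). *Ulk1*, the kinase that starts autophagy, had 6.83, 4.51 and 11.2 CPM. *Rps6kb2*, the second S6 kinase, and *Eif4g1*, a scaffold of translation initiation, had KO over Het ratios of 1.46 and 1.38. In Rescue over Het each list had at most 3 genes past 1.5-fold in either direction, beside 10.6% of all genes higher and 19.3% lower. The list medians there lay between −0.07 and 0.22, against 0.01 for all genes. In Rescue over KO 7 of the 14 downstream effectors were higher, beside 38.6% of all genes, with a median of 0.51 against 0.32.

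**Figure D5:**
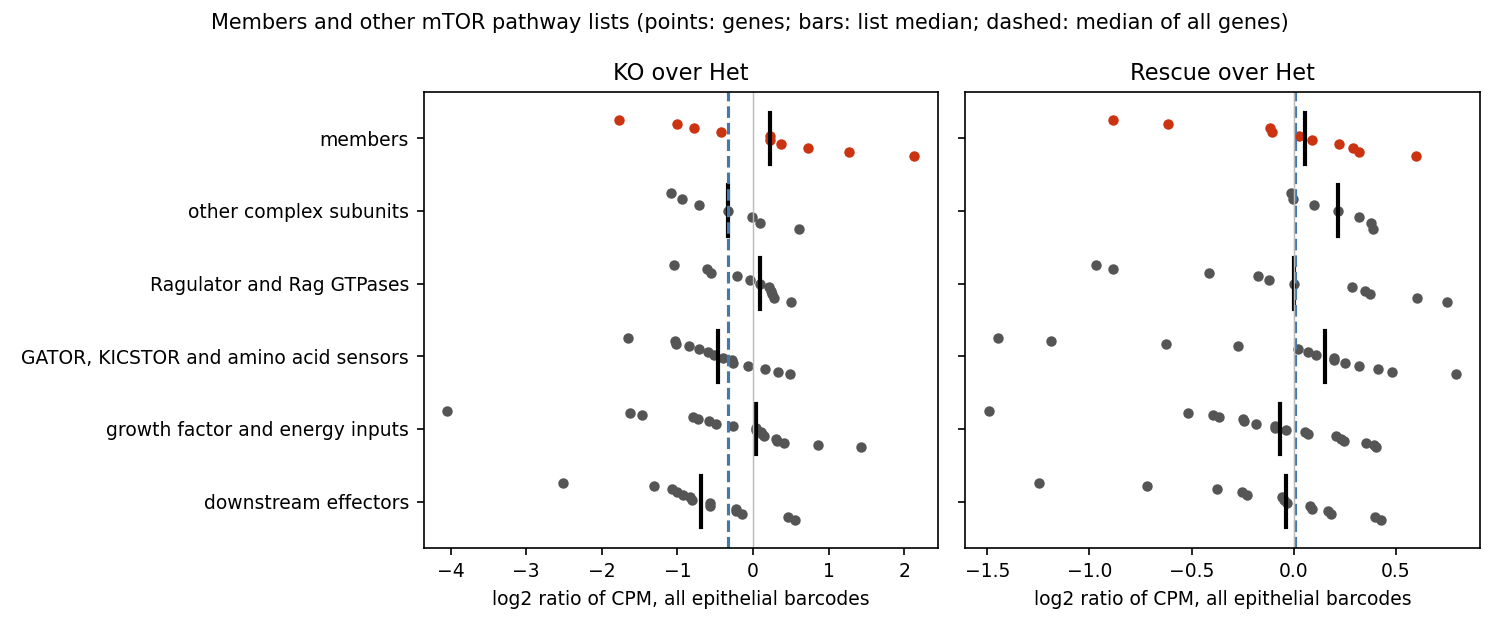
Log2 ratio of CPM in all epithelial barcodes for the 10 members (red points) and the genes of 5 other mTOR pathway lists (grey points), in the panels KO over Het and Rescue over Het, with a bar at each list's median and a dashed line at the median of all genes. The members' median was 0.22 in KO over Het, where that of all genes was −0.33, and the lowest point in that panel is *Igf1r*.

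Across the 12 sums of UMIs (4 types in 3 libraries) members with alike levels were *Rheb* and *Rps6kb1* (Pearson's r = 0.91), *Mtor* and *Rptor* (0.86), *Rptor* and *Lamtor1* (0.83), *Mtor* and *Lamtor1* (0.83) and *Rps6kb1* and *Deptor* (0.79). The lowest value was between *Rps6kb1* and *Tsc2* (−0.59). The sums share libraries and their depth, so these values describe the data and carry no test. Among genes with a mean of at least 10 CPM the pattern most like that of *Eif4ebp1* was that of *Pmepa1* (0.96) and then *Myo1c* (0.95). For *Lamtor1* it was *Szrd1* (0.99) and *Ap2s1* (0.97), for *Deptor* *Vezf1* (0.97) and *Ubqln2* (0.97), and for *Rps6kb1* *Rsl24d1* (0.99) and *Dhx15* (0.99). *Mtor* was most like *Vta1* (0.97) and *Rictor* most like *Ccl20* (0.94), and each of these 2 members had 20 or more UMIs in 11 of the 12 sums.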

How the data were processed

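Crypts were dissociated with 3x TripLE for 1 hour and 4000 to 5000 cells per sample went into 10x Genomics Chromium 3′ v3 libraries, per the labels' protocols. The deposited values are counts of UMIs per gene and barcode, written by the authors' Cell Ranger run. Per the file headers, Cell Ranger 3.1.0 made the Rescue table and 3.0.2 the KO and Het tables, while version 1.3.0 stands in the submitters' processing notes. The genome build, and whether counting used the strand, are not given in the sources used here. Gene positions were looked up by gene ID in GENCODE vM21, which held 28339 of the 28692 IDs.

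Counts were summed over the barcodes of a population in each library and divided by their summed UMIs (CPM). The 10 members, the gene lists and the limits for Lgr5-positive, Fabp1-high and Muc2-high barcodes were chosen with earlier results of these data known. All members are named, and of each other list the 2 highest and 2 lowest genes in KO over Het with at least 50 UMIs, except 1 gene that is not reported here. Intervals are exact Poisson (levels), exact conditional binomial (ratios) and exact Clopper-Pearson (shares), computed with Python 3.11.15, numpy 2.4.6 and scipy 1.17.1, and the computation of ratios was checked on simulated counts. The labels give 1 library per genotype and no number of animals, so no p-value was computed. No doublet caller was run and barcodes with signs of several types were kept. In a sum of UMIs, fewer cells of a type and less RNA per cell cannot be told apart. Alternatives changed the mitochondrial limit, *Epcam* and *Ptprc* limits, type limits, denominator, centring, TMM factors (edgeR 4.0.16, on the counts as deposited), weights of barcodes and types, depth and fold. One more, leaving out barcodes rich in Paneth RNA, was chosen after seeing the data.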

Additional observations from a re-analysis of the deposited data

Results flagged for a closer look

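A case was counted when the interval of a ratio between 2 types lay above 1 in 1 library and below 1 in another. By that rule the direction of a member from 1 epithelial type to another differed between libraries in 4 cases. In none could the difference be tested with 1 library per genotype. *Eif4ebp1* in Fabp1-high over Mki67-positive barcodes had a ratio of 0.301 in Rescue, 1.24 in KO and 0.284 in Het, and in Fabp1-high over Lgr5-positive barcodes a ratio of 0.322 in Rescue, 1.60 in KO and 0.273 in Het. *Rptor* in Fabp1-high over Lgr5-positive barcodes had a ratio of 0.673 in Rescue and 1.46 in Het. *Tsc1* in Muc2-high over Mki67-positive barcodes had a ratio of 0.460 in Rescue, on 9 UMIs in the Muc2-high sum, and 1.37 in KO.

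*Eif4ebp1* and *Lamtor1* were also higher than in Het outside the epithelial barcodes used above. In barcodes with *Epcam* and over 20% mitochondrial UMIs (697 in Rescue, 1447 in KO and 2170 in Het) *Eif4ebp1* was 3.64-fold higher in KO than in Het, and *Lamtor1* was 1.54-fold higher in Rescue and 2.42-fold higher in KO than in Het. In immune barcodes (at least 2 UMIs of *Ptprc* and none of *Epcam*, 446 in Rescue, 105 in KO and 349 in Het) *Eif4ebp1* was 1.81-fold higher in Rescue and 3.36-fold higher in KO than in Het, and *Lamtor1* 1.75-fold and 3.56-fold. The immune barcodes differed in kind, with myeloid markers at 1739 CPM in Rescue, 21504 CPM in KO and 156 CPM in Het, and T cell markers at 21102, 8444 and 27237 CPM, whose part in these ratios was not tested.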

How the results depend on the processing

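No paired analysis was possible because each genotype has 1 library, and leaving out a library would remove its genotype. Over all alternatives 65 counts of members stayed within 1.5 times and 25 did not. They include a setting without a minimum of UMIs, which could not change them because all 10 members passed that minimum. Of the member ratios 1688 stayed within their counting interval, 386 moved outside it, and 9 that were past 1.5-fold changed direction. A change of direction in a ratio under 1.5-fold was not counted as such. A library with 0 UMIs whose floor of 3 UMIs lay at or above the other library's level gave no ratio, as for *Rictor* in KO with *Lgr5* at 2 or more UMIs and for some members in Fabp1-high barcodes at the 10% limit. Of the shares of barcodes with a UMI, 27 moved and 3 did not when barcodes were thinned to 2000 in place of 5000 UMIs. Such a share is lower at a lower depth by construction, so that count does not bear on differences between libraries. Counts in KO over Het all stayed within 1.5 times. In Rescue over Het the 1 higher member became 2 with a mitochondrial limit of 10% or none, and 0 with a denominator free of mitochondrial, ribosomal, *Fabp1* and *Defa* genes, without the 5% deepest barcodes, thinned to 5000 UMIs, with equal weights of the 4 types, without barcodes rich in Paneth RNA, and at 2-fold. The 2 lower members became 1 with the 10% limit and with equal type weights, and 0 with no mitochondrial limit and at 2-fold. In Rescue over KO the 2 higher members became 0 when centred on the median of all genes, with TMM factors and at 2-fold, and 1 with equal weight per barcode, thinning and equal type weights. The 2 lower members became 4 with the 10% limit, 5 when centred or with TMM factors, and 1 with the other denominator, equal weight per barcode, thinning and at 2-fold.

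Among ratios past 1.5-fold, the log2 ratio of *Deptor* in Rescue over KO over all epithelial barcodes changed direction with equal type weights (−0.024). With *Lgr5* at 2 or more UMIs, those of *Eif4ebp1* in KO over Het (−0.16) and in Rescue over KO (0.50) did so. Thinning turned *Lamtor1* in Lgr5-positive (−0.21) and *Mtor* (−0.23) and *Rptor* (−0.96) in Muc2-high barcodes, all in KO over Het. *Rptor* in Muc2-high barcodes was also turned with *Muc2* at 1000 CPM or more (−0.11), equal weight per barcode (−0.11) and without barcodes rich in Paneth RNA (−0.39). The cause was not tested. Over all epithelial barcodes *Eif4ebp1*, *Lamtor1*, *Deptor* and *Rictor* in KO over Het and *Eif4ebp1* in Rescue over KO were past 1.5-fold in all 13 alternatives. Depth limits *Mtor*, *Rptor*, *Rictor*, *Tsc1* and *Tsc2*, mostly under 20 CPM, most of all in the 17 Lgr5-positive KO barcodes.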

Other observations

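*Rptor* in immune barcodes had 27.6 CPM in Rescue (68 UMIs), 22 CPM in KO (19 UMIs) and 92.0 CPM in Het (163 UMIs), 3.34-fold lower in Rescue (2.50 to 4.49) and 4.18-fold lower in KO than in Het (2.59 to 7.13). The immune barcodes of Het had the highest T cell marker level and those of KO the highest myeloid one, as given above, and the part of this mix was not tested. *Deptor* had 7, 11 and 10 UMIs in the immune barcodes of Rescue, KO and Het, and was 4.48-fold lower in Rescue than in KO (1.59 to 13.6), on fewer UMIs than the 20 required of a counted difference. Its ratios to Het there were 0.503 in Rescue (0.163 to 1.46) and 2.26 in KO (0.870 to 5.93), whose intervals include 1.

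Epithelial barcodes of none of the 4 types numbered 212 in Rescue, 313 in KO and 132 in Het. In them *Eif4ebp1* had 30.6 CPM in Rescue, 154 CPM in KO and 28.9 CPM in Het, and *Deptor* had 32.9, 17.8 and 89.3 CPM, so the KO over Het ratio of *Eif4ebp1* was 5.33 and *Deptor* was 5.03-fold lower in KO than in Het.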
